A study of Mus musculus with 8 samples.

Results

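Fibroblast growth factor (FGF) receptors and the genes that report on signalling through them were compared between wild-type and Tbx20EH1Mut mouse hearts at embryonic day (E)9.5. The 10 genes were chosen by name as receptors and induced genes of the pathway, with earlier results of these data known: the receptors Fgfr1 and Fgfr2, the inhibitors Spry1, Spry2, Spry4, Spred1, Dusp6 and Il17rd, and the transcription factors Etv4 and Etv5. All 10 were found by Ensembl identifier among the 49315 genes listed, and all 10 were among the 17163 genes with enough counts to be tested. The comparison asked whether the output of the pathway differed between the genotypes.

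Tbx20 is a T-box transcription factor of the developing heart, and TLE proteins are corepressors that it recruits through its engrailed homology (EH1) motif. Tbx20EH1Mut embryos were homozygous for an allele in which 2 amino acids of that motif were substituted by genome editing, in a line back-crossed to C57BL/6J. The comparison embryos were wild-type. Each of the 8 libraries, 4 per genotype, was made from poly-A selected RNA of 3 pooled whole hearts, and both sexes were used in the study. The study describes the mutant embryos as growth retarded with unlooped hearts, so delay, heart size and cell composition cannot be told apart from genotype, and fewer cells of a type cannot be told apart from less RNA per cell in whole-heart RNA.

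FGF ligands bind receptor tyrosine kinases of the FGFR family, which recruit the adaptor FRS2 and activate RAS, RAF, MEK and the kinase ERK. ERK activity induces the ETS transcription factors ETV4 and ETV5 and a set of inhibitors that act back on the pathway: Sprouty and SPRED proteins restrain the signal between the receptor and RAF, DUSP6 removes phosphates from ERK, and IL17RD (also called SEF) is a membrane protein that dampens FGF signalling. Transcripts of these inhibitors are widely used as readouts of FGF signalling in embryos. In the early heart, FGF8 and FGF10 made by the pharyngeal mesoderm and the second heart field act on the progenitors that lengthen the heart tube.

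Promoter windows of the NCBI RefSeq annotation (GRCm38.p6) were available for 7 of the 10 genes. The 250 bases before the annotated start are shown for Spry1, for Dusp6, the ERK phosphatase, and for Spred1, an inhibitor that did not pass the test. Spry1 had the largest log2 fold change of the 10 genes in the main fit. Without wild-type replicate 2 that of Il17rd was larger (2.20 against 1.91 for Spry1). GGAA and its reverse complement TTCC, the shortest letters that ETS factors recognise, are in capitals.
Spry1, chr3:37639697-37639946, plus strand: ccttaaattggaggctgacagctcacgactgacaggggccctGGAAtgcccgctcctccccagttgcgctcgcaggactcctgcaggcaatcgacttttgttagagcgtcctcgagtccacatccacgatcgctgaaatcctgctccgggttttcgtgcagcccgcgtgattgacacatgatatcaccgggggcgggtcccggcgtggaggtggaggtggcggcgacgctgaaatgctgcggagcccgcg
Dusp6, chr10:99262981-99263230, plus strand: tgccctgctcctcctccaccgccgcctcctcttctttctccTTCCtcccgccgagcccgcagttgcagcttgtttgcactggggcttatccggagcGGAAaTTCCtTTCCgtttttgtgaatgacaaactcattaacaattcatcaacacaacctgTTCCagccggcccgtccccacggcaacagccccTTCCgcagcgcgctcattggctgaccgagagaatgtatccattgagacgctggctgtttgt
Spred1, chr2:117120821-117121070, plus strand: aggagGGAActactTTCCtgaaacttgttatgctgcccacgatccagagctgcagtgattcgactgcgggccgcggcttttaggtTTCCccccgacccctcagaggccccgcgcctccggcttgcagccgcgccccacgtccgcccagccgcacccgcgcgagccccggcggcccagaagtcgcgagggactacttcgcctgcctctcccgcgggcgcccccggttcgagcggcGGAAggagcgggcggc
These 250 bases held 1 such match in Spry1, 6 in Dusp6 and 4 in Spred1. The Spred1 window ends upstream of the gene start listed in the count tables, and those of Spry1 and Dusp6 end at it. Over the full windows of 300 bases (250 before the start and 50 after it), the letters GGAA occurred on either strand in 96.0% of all 32851 windows, with a median of 3 matches. The longer ETS letters CCGGAAGT were found on neither strand of the 8 windows of these genes, against 3.89% of all windows. The core CCGGAA, which the longer letters contain, occurred once, 33 bases after the start of Spry2, against 14.9% of all windows. The T-box letters AGGTGTGA occurred in none of the 8 windows, against 1.28% of all windows. A match describes letters in a window and is not a binding site.

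The genes named for the pathway's output mostly rose. Of the 10 genes, 7 were higher in Tbx20EH1Mut hearts, 0 were lower and 3 did not pass the test (edgeR quasi-likelihood test, Benjamini-Hochberg adjusted p of at most 0.05 over all genes tested). The background of this comparison was wide, since 29.3% of all genes tested were called, 14.0% as higher and 15.3% as lower. All 7 genes also exceeded a log2 fold change of 0.5, as did 12.5% of all genes tested in the same direction. In all 7, every Tbx20EH1Mut library lay above every wild-type library, a pattern found in 14.7% of genes tested (30.5% when separation in either direction is counted). No gene of the 10 was lower at an unadjusted p of 0.05 either, and DESeq2 and limma-voom also called 0 lower. The median log2 fold change of the 10 genes was 0.635, against 0.0048 over all genes tested.

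**Figure D1:**
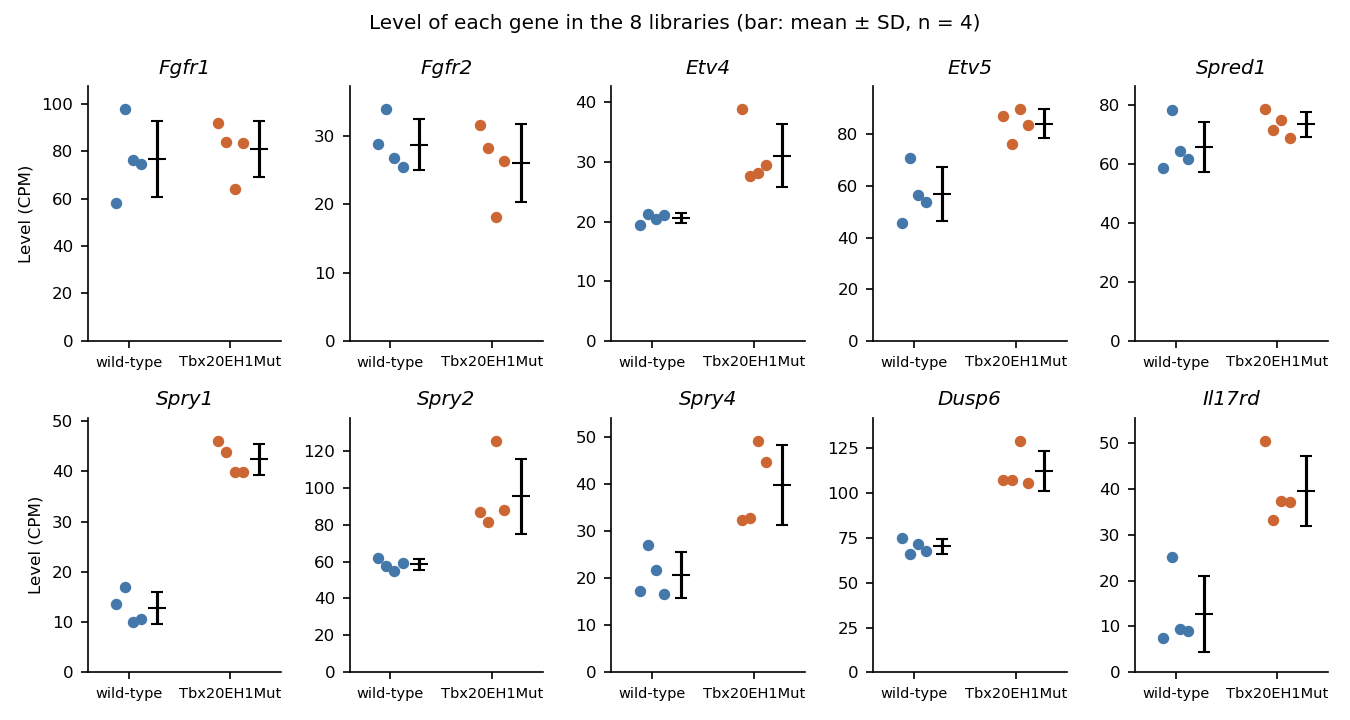
Levels in CPM (counts scaled to library size, linear axis from 0) of the 10 genes in each library, with points for libraries and bars for the mean ± SD of 4 libraries per genotype. The points of Spry1, Spry2, Spry4, Dusp6, Il17rd, Etv4 and Etv5 do not overlap between the genotypes, and those of Fgfr1, Fgfr2 and Spred1 do.

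Depth was 33359322 to 49523086 counts per wild-type library and 36250675 to 38357025 per Tbx20EH1Mut library, with every wild-type library except replicate 1 above all those of Tbx20EH1Mut (exact two-sided permutation test, p = 0.143, n = 4). Tbx20 itself (GRCm38, chr9:24718138-24774303, minus strand) fell by 0.46 on the log2 scale (SE 0.133, adjusted p = 0.0273 by edgeR). Every Tbx20EH1Mut library (215.0 to 316.7 CPM) lay below every wild-type one (353.2 to 379.6 CPM). The call was lost without wild-type replicate 3 or 4, without Tbx20EH1Mut replicate 1 or 2, and under upper-quartile scaling. In those fits the log2 fold change was -0.46 to -0.36 (adjusted p between 0.0608 and 0.0726 by edgeR). It was also lost with a foregut marker covariate (-0.30, adjusted p = 0.203) and without the 3 libraries named below (-0.27, adjusted p = 0.135). The mutation changes codons and not the gene's presence, so the level of Tbx20 does not check the labels. Cardiomyocyte markers identified both groups as heart: their summed level was 22610 to 30820 CPM in wild-type and 22440 to 33820 CPM in Tbx20EH1Mut libraries. Of the 8 cardiomyocyte markers, 1 was called (Actn2, lower). Markers of other cell types were summed in the same way. Markers of pharyngeal and second heart field mesoderm, led by Isl1, summed to 72.2 to 108 CPM in wild-type and 157 to 263 CPM in Tbx20EH1Mut libraries (exact permutation p = 0.0286, the smallest that 4 against 4 libraries allow), with 2 of 5 tested called higher. Endothelial markers (3 of 7 called higher) summed to 523 to 670 and 680 to 748 CPM. Pecam1, Kdr and Emcn were the called ones, Cdh5 (-0.13) and Tek (-0.25) were lower without being called, and the list median was 0.055. Erythroid markers (4 of 5 called lower) summed to 20.9 to 54.75 and 9.69 to 17.7 CPM. Neural crest markers summed to 1.45 to 6.23 CPM and 1.69 to 18.5 CPM (0 of 4 called, 2 at an unadjusted p under 0.05, exact permutation p of the sums 0.229). Neural tube markers summed to 1.34 to 3.73 and 6.05 to 8.38 CPM. Of these 5 markers, 2 had enough counts to be tested, and 1 was called higher. That was Pax6, which made up most of the sum (means 1.865 and 6.289 CPM), and Neurog2 was not called. Proepicardium markers summed to 54.1 to 174 and 117 to 160 CPM (1 of 5 called higher, Wt1, exact permutation p of the sums 0.229). Their median log2 fold change was -0.14, and only that of Wt1 was above 0, at 1.59. Foregut markers are given beside the results below, and the part of each of these lists in those results was not tested.

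The receptors did not pass the test. Fgfr1 (chr8:25513654-25575718, plus strand), the receptor most used in early mesoderm, had 58.3, 97.7, 76.5 and 74.6 CPM in the wild-type libraries, in the order of their replicate numbers here and below, and 92.1, 83.8, 64.1 and 83.4 CPM in the Tbx20EH1Mut ones. The groups overlapped throughout, with both the highest and the lowest library in wild-type. Its log2 fold change was 0.07 (SE 0.167, adjusted p = 0.762 by edgeR). Fgfr2 (chr7:130162451-133123350, minus strand), a receptor best known from epithelia and for its response to FGF10, stood at 28.9, 34.0, 26.8 and 25.5 CPM in wild-type and at 31.6, 28.3, 18.2 and 26.4 CPM in Tbx20EH1Mut libraries. Its groups overlapped as well, with Tbx20EH1Mut replicate 3 lowest (log2 fold change -0.14, SE 0.172, adjusted p = 0.567). The listed Fgfr2 model shares 314 exon bases, 3.04% of its exons, with Ctbp2 on the same strand, which had 24027 counts over all libraries against 8995 for Fgfr2, so an unknown part of its reads is uncertain.

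Among the Sprouty genes, which encode membrane-associated inhibitors of receptor tyrosine kinase signalling, all 3 measured members rose. Spry1 (chr3:37639947-37644598, plus strand) stood at 13.5, 16.9, 10.02 and 10.6 CPM in wild-type libraries and at 46.1, 43.8, 39.8 and 40.0 CPM in Tbx20EH1Mut libraries. Even the lowest Tbx20EH1Mut library lay far above the highest wild-type library. The mean rose from 12.8 ± 3.15 to 42.4 ± 3.07 CPM (SD, n = 4), a log2 fold change of 1.73 (SE 0.170, adjusted p = 1.80e-04 by edgeR), which was larger than that of 97.0% of the genes tested. The predicted gene Gm42922 overlaps 24.4% of the Spry1 exon bases on the opposite strand but had 191 counts over all libraries, against 8479 for Spry1.

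Spry2 (chr14:105891949-105896819, minus strand) stood at 61.9, 57.5, 54.7 and 59.4 CPM in wild-type and at 86.9, 81.2, 125.4 and 87.7 CPM in Tbx20EH1Mut libraries. The wild-type libraries were close to each other, and Tbx20EH1Mut replicate 3 stood far above the others of its genotype. The log2 fold change was 0.71 (SE 0.143, adjusted p = 0.00624 by edgeR), and 0.55 with that library left out, still called. Spry4 (chr18:38586268-38601268, minus strand) stood at 17.2, 27.1, 21.8 and 16.7 CPM in wild-type and at 32.4, 32.8, 49.2 and 44.6 CPM in Tbx20EH1Mut libraries. The highest wild-type and lowest Tbx20EH1Mut libraries were close, and the rise of 0.94 on the log2 scale (SE 0.196, adjusted p = 0.00710) was larger than that of 88.5% of genes tested.

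The other inhibitors did not move as one group. Dusp6 (chr10:99263231-99267488, plus strand), the cytoplasmic phosphatase of ERK, stood at 74.9, 66.2, 71.8 and 67.8 CPM in wild-type and at 107.4, 107.1, 129.1 and 105.3 CPM in Tbx20EH1Mut libraries. The gap between the genotypes was wide against the spread within them, and again Tbx20EH1Mut replicate 3 was highest. The mean went from 70.2 ± 3.91 to 112.2 ± 11.3 CPM (SD, n = 4; log2 fold change 0.68, SE 0.105, adjusted p = 0.00179 by edgeR). Spred1 (chr2:117121374-117182279, plus strand), a Sprouty-related inhibitor that brings neurofibromin to RAS, stood at 58.8, 78.2, 64.2 and 61.6 CPM in wild-type and at 78.5, 71.5, 75.0 and 68.7 CPM in Tbx20EH1Mut libraries. Wild-type replicate 2 came close to the level of the highest Tbx20EH1Mut library, and the difference did not pass the test (log2 fold change 0.16, SE 0.114, adjusted p = 0.304).

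Il17rd (chr14:27039001-27107286, plus strand) stood at 7.44, 25.1, 9.48 and 8.97 CPM in wild-type and at 50.4, 33.2, 37.3 and 37.1 CPM in Tbx20EH1Mut libraries. Wild-type replicate 2 stood well above the other wild-type libraries and still below every Tbx20EH1Mut library. The log2 fold change was 1.63 (SE 0.356, adjusted p = 0.00883 by edgeR), with the widest error of the 10 genes, and it was 2.20 without wild-type replicate 2.

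Both ETS factors rose by similar amounts. Etv4 (chr11:101769742-101785371, minus strand) stood at 19.5, 21.3, 20.5 and 21.1 CPM in wild-type and at 38.8, 27.6, 28.2 and 29.5 CPM in Tbx20EH1Mut libraries. Its wild-type level was nearly constant, and Tbx20EH1Mut replicate 1 was highest (log2 fold change 0.59, SE 0.130, adjusted p = 0.00893 by edgeR). Etv5 (chr16:22381309-22439719, minus strand) stood at 45.7, 70.9, 56.7 and 53.9 CPM in wild-type and at 87.1, 76.5, 89.8 and 83.5 CPM in Tbx20EH1Mut libraries. The groups came close, at wild-type replicate 2 and Tbx20EH1Mut replicate 2, without overlapping (log2 fold change 0.57, SE 0.137, adjusted p = 0.0132). Without wild-type replicate 4 its adjusted p was 0.0509 and the count of genes that rose was 6 of 10.

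**Figure D2:**
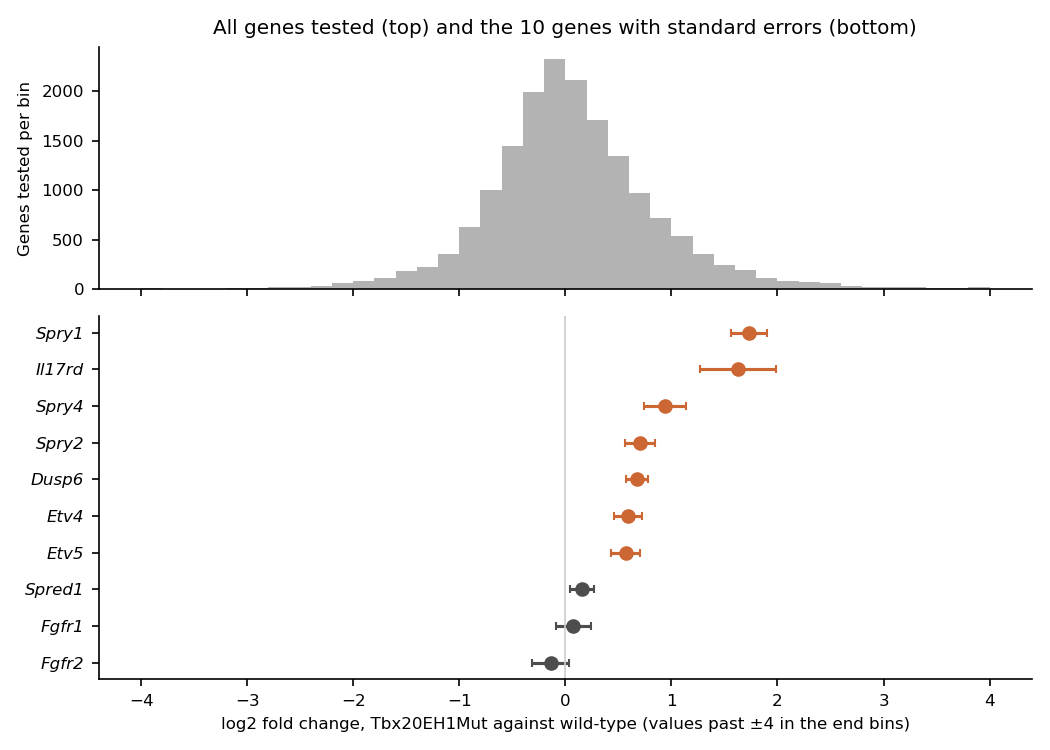
Distribution of the log2 fold change of all 17163 genes tested in bins of 0.2 (top) and the log2 fold change of the 10 genes with standard errors (bottom, orange where the adjusted p was at most 0.05). Spry1 at 1.73 and Il17rd at 1.63 lie in the upper tail, while Fgfr1, Fgfr2 and Spred1 lie near the centre.

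Levels per kilobase of exon allow the genes to be set in an approximate order. The length is that of all exons listed for a gene, which can differ from that of the transcripts present. For Fgfr2 it includes the exon bases shared with Ctbp2. In wild-type hearts Spry2 (28.0 CPM per kb) and Dusp6 (25.1) were highest and their ranges overlapped. Etv5 (13.8), Spred1 (9.68), Fgfr1 (7.77) and Etv4 (6.63) followed, each overlapping the next, then Spry4 (4.51) with Spry1 (4.40), and last Fgfr2 (2.79) with Il17rd (1.55). In Tbx20EH1Mut hearts Spry2 (45.7), Dusp6 (40.1) and Etv5 (20.5) kept the first places. Spry1 came next at 14.6, clear of Etv5 above and Spred1 (10.8) below, and Il17rd (4.81) stood above Fgfr2 (2.53) with no overlap.

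Ratios of related genes within a library need no scaling between libraries, and 5 were compared. The ratio of Spry2 counts to Spry1 counts lay between 3.404 and 5.59 in wild-type and between 1.86 and 3.15 in Tbx20EH1Mut libraries, without overlap (difference of mean log2 ratios -1.075, exact two-sided permutation p = 0.0286, 0.0714 after adjustment over the 5 ratios). The ratio of Spry4 to Spry1 also separated, from 1.27 to 2.18 in wild-type and from 0.702 to 1.24 in Tbx20EH1Mut libraries (difference -0.82, exact permutation p = 0.0286, adjusted 0.0714). Neither passed 0.05 after adjustment, although both had the smallest p that 70 arrangements can give, and with single libraries left out the exact permutation p of each reached 0.0571. Spry1 thus took a larger share of Sprouty counts in every Tbx20EH1Mut library than in any wild-type library when set against Spry2 or Spry4. The ratio of Spry4 to Spry2 overlapped (difference 0.26, exact permutation p = 0.257, adjusted 0.321), as did that of Etv5 to Etv4 (difference 0.0047, p = 0.943, adjusted 0.943) and that of Fgfr2 to Fgfr1 (difference -0.25, p = 0.0571, adjusted 0.0952).

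**Figure D3:**
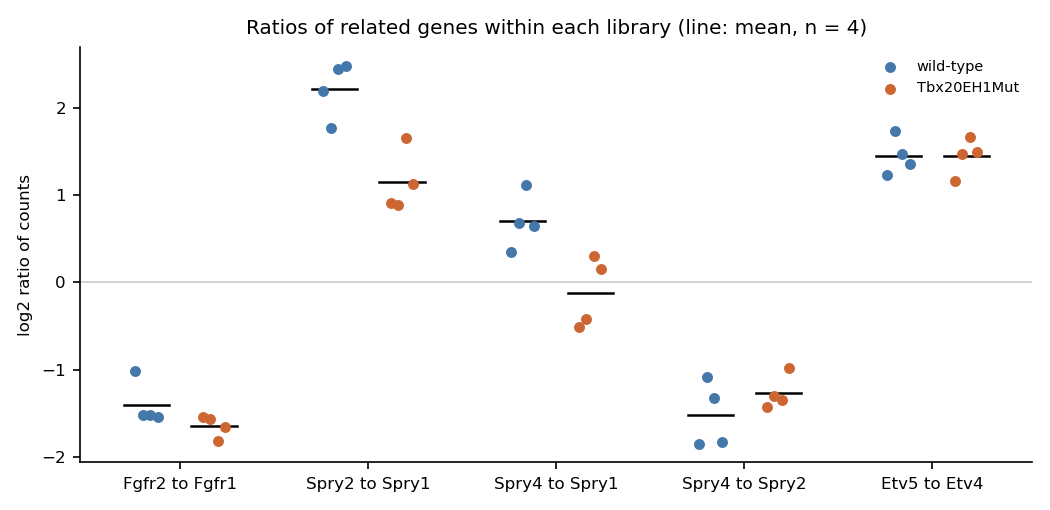
Log2 ratios of counts for 5 pairs of related genes within each library, with points for libraries and lines for the mean of 4 libraries per genotype. The ratios of Spry2 and of Spry4 to Spry1 are lower in every Tbx20EH1Mut library than in every wild-type library, and the other 3 ratios overlap.

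Foregut epithelium lies against the heart at E9.5 and itself uses FGF receptors, and its markers varied among these libraries. The summed level of 10 markers came to 3.25, 62.7, 1.32 and 11.5 CPM among the wild-type libraries and 208, 173.5, 34.8 and 94.0 CPM among the Tbx20EH1Mut ones. The groups overlapped, with wild-type replicate 2 above Tbx20EH1Mut replicate 3 (exact permutation p = 0.0571). Of 9 tested markers, 3 were called higher (Epcam, Foxa2 and Shh), and 5 had an unadjusted p under 0.05 by edgeR. All 9 had a log2 fold change above 0, from 1.98 to 3.48 with a median of 2.61. Wild-type replicate 2 was also the highest wild-type library for Spry1, Spry4, Spred1, Etv4, Etv5, Il17rd and both receptors, but the lowest for Dusp6 and next to the lowest for Spry2.

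The part of foregut tissue in the levels of the 10 genes was not tested, and they were fitted again in 2 ways. A fit chosen after seeing the data left out wild-type replicate 2 and Tbx20EH1Mut replicates 1 and 2, the highest in these markers within their genotypes. It called 7 genes higher and 0 lower, with Spry1 at 1.82 and Etv4 at 0.51 on the log2 scale, but in the libraries left the marker sums no longer overlapped between the genotypes, so marker level and genotype cannot be told apart in it. With the markers' mean log2 level as a covariate over all 8 libraries, 4 genes were called higher: Spry1 (1.32), Spry2 (0.93), Spry4 (0.90) and Dusp6 (0.87). In that fit Il17rd (0.72, adjusted p = 0.0841 by edgeR), Etv5 (0.35, adjusted p = 0.157) and Etv4 (0.40, adjusted p = 0.128) did not pass, and Fgfr2 was called lower (-0.63, adjusted p = 0.0343). The covariate and genotype were partly aligned in these libraries.

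**Figure D4:**
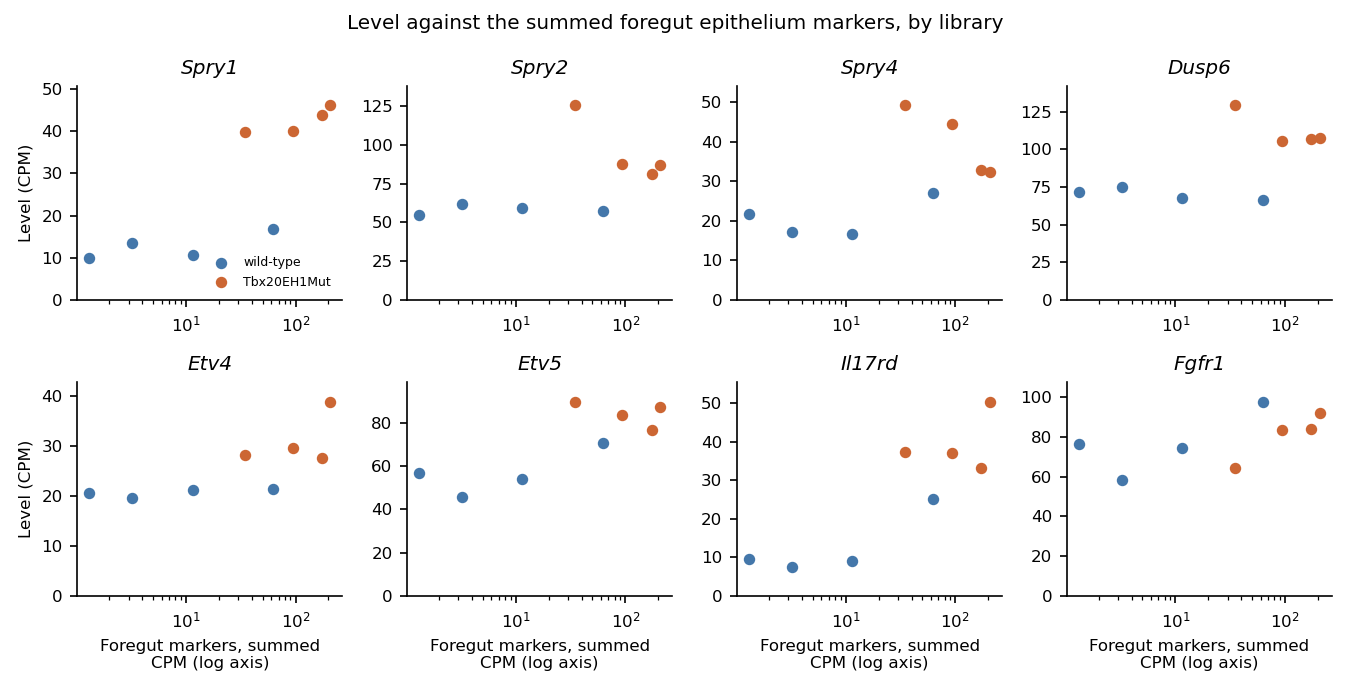
Level in CPM of 8 of the genes against the summed CPM of foregut epithelium markers (log axis), with 1 point per library. Marker sums run from 1.32 to 62.7 in wild-type and from 34.8 to 208 in Tbx20EH1Mut libraries, and the Fgfr1 points of the genotypes overlap in level.

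The rest of the pathway was described with lists of 82 further genes. The counts below stand beside the 14.0% of all genes tested that were higher and the 15.3% that were lower, both from the main edgeR fit. Counts from other fits have other backgrounds. With the foregut covariate 3323 of the 17163 genes tested were called higher and 3586 lower, and with the replicate block 1997 and 1948. Without wild-type replicate 1 they were 3237 and 3349 of 17661 genes tested. Those under upper-quartile scaling are given in the last section. Of 11 FGF ligands tested, 4 rose and 1 fell, with a median log2 fold change of 0.52. Fgf8, a ligand of the second heart field, stood at 11.02, 13.9, 10.5 and 11.85 CPM in wild-type and at 75.2, 68.3, 101 and 83.7 CPM in Tbx20EH1Mut libraries. No gene of the pathway lists had a larger fold except Ier3 below (log2 fold change 2.80, SE 0.153, adjusted p = 9.69e-06 by edgeR). Fgf10, the second heart field ligand that acts mainly through FGFR2b, rose by 2.40 (adjusted p = 2.86e-04), Fgf1 by 1.49 (not called with the foregut covariate, adjusted p = 0.0529) and Fgf6 by 1.52 from lower levels, and Fgf9, a ligand of the epicardium and endocardium, fell by 1.44 (adjusted p = 0.0105). With the foregut covariate 3 ligands were called higher and 0 lower. Of 7 other receptors and co-receptors tested, 1 was lower: Flrt3, a membrane protein that binds FGF receptors, fell by 0.82 (adjusted p = 0.0107). In that list 0 were higher by edgeR (1 at an unadjusted p under 0.05), 0 by limma-voom and 1 by DESeq2, and 2 were lower with the foregut covariate or without wild-type replicate 1.

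Of 23 adaptor and cascade genes, 2 rose and 3 fell, with a median of -0.09. The counts were 4 and 7 with the foregut covariate, 4 and 3 under upper-quartile scaling, 2 and 2 with limma-voom and 1 and 2 with the replicate block. Leaving out single libraries gave 1 to 4 higher and 2 to 4 lower. Ptpn11, which encodes the phosphatase SHP2 downstream of the receptor, fell from 210.4 ± 58.6 CPM to 115.7 ± 9.07 CPM, by 0.86 on the log2 scale (adjusted p = 0.00890 by edgeR), and the scaffold gene Ksr1 fell by 0.70 (adjusted p = 0.00671). Mapk3, which encodes ERK1, rose by 0.55 (adjusted p = 0.00405).

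Of 12 other feedback inhibitors tested, 3 rose against a background of 14.0%, and the median was 0.08. In that list 0 were lower by edgeR (1 at an unadjusted p under 0.05), 0 by limma-voom and 1 by DESeq2, but 5 were lower with the foregut covariate and 2 without wild-type replicate 1 or without the 3 libraries left out above. Errfi1, an inhibitor of EGF receptor family signalling, rose from 19.8 ± 4.51 CPM to 37.3 ± 3.10 CPM, by 0.91 on the log2 scale (adjusted p = 0.00306 by edgeR) and by 0.48 with the foregut covariate (adjusted p = 0.0422). Spred3 (0.71, adjusted p = 0.0307) and Dusp5, a nuclear ERK phosphatase (0.56, adjusted p = 0.0271), passed with overlapping groups, and neither call held when any 1 of 5 libraries was dropped. With the foregut covariate the log2 fold change of Spred3 was 0.065 (adjusted p = 0.8285 by edgeR). Spred2 stood near no change, as Spred1 did (log2 fold change 0.15, adjusted p = 0.546).

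Of 12 other genes induced by ERK, 6 rose and 1 fell, against 14.0% and 15.3% of all genes, with a median of 0.67. Ier3, an immediate early gene, rose from 6.87 ± 2.83 CPM to 51.0 ± 8.52 CPM, by 2.90 on the log2 scale (adjusted p = 1.59e-04 by edgeR). Phlda1 rose by 1.45, Fos by 1.36, Junb by 0.95, Ier2 by 0.82 and Myc by 0.74, and no library of one genotype reached the other for any of these. Egr1, another immediate early gene, did not pass the test (-0.05, adjusted p = 0.899), and Ccnd1, which encodes cyclin D1, fell by 1.53 (adjusted p = 0.0113), and by 2.79 with the foregut covariate and 2.03 without the 3 libraries left out above. Many signals besides FGF induce these genes. Of 7 repressors and ETS factors under ERK control, 1 rose (Elk3, 0.44) and 3 fell: Etv3, an ETS repressor, by 0.77 (adjusted p = 0.00409), Etv6 by 0.43 (adjusted p = 0.0228) and Elk1 by 0.42 (adjusted p = 0.0380), which fell by 0.74 with the foregut covariate. In this list 5 were lower with the foregut covariate, 2 under upper-quartile scaling and 1 with the replicate block. The calls of Elk3, Etv6 and Elk1 did not hold in 2, 3 and 6 of the fits without a single library (adjusted p up to 0.0507, 0.0734 and 0.0945).

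**Figure D5:**
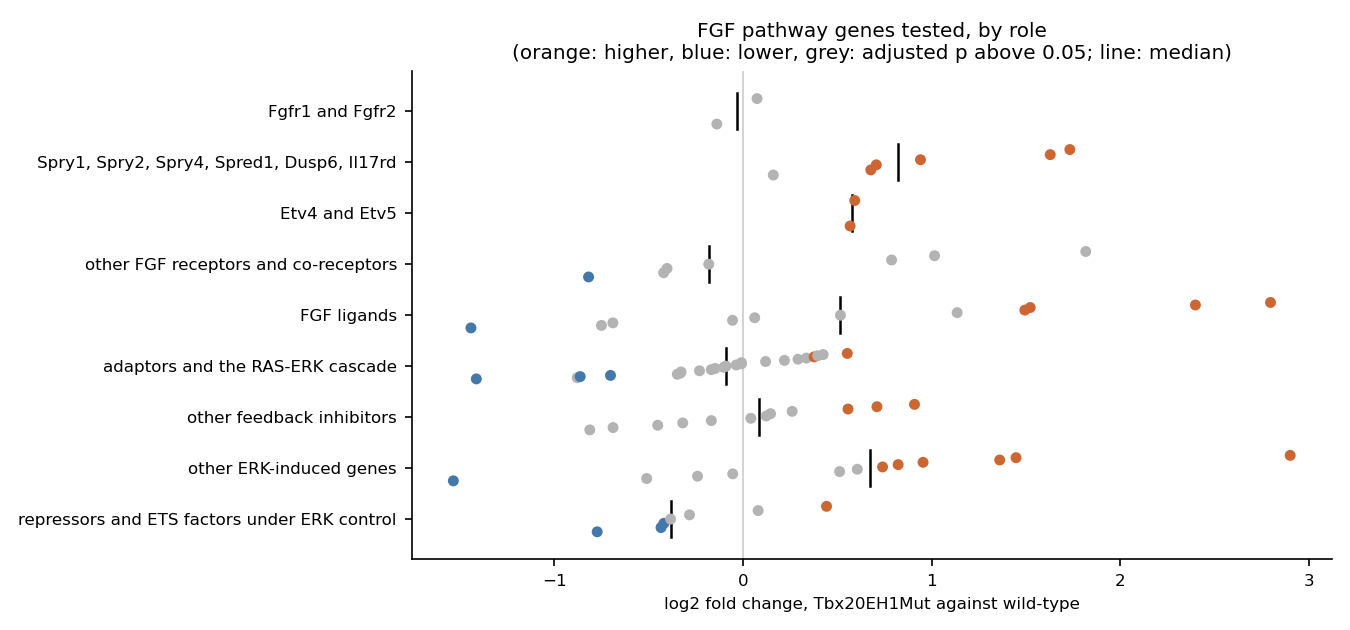
Log2 fold change of each tested pathway gene grouped by role, with 1 point per gene and a line at the median of each group. Points of the inhibitors and ETS factors chosen by name lie to the right of 0, those of the cascade genes lie on both sides, and the ligands Fgf8 and Fgf10 lie beyond 2.

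The genes whose profile over the 8 libraries was most like that of Dusp6 were Ccpg1os (Pearson r = 0.9955), Paip2 (0.994), Sin3b (0.9938), Zfp874b (0.9932) and 2500002B13Rik (0.9926), out of 10948 genes whose mean reached 5 CPM. None is one of the 10 genes, and the 8 points share the split between genotypes and the same libraries.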

How the data were processed

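RNA-seq was performed by the study on whole E9.5 hearts, with 4 wild-type and 4 Tbx20EH1Mut libraries of 3 pooled hearts each and paired-end reads. The authors deposited 1 table of raw counts per library, not normalized. The submitters' processing notes name Trimmomatic 0.36, STAR 2.5.2b and GRCm38 (mm10). The counting tool and strand setting are not given in the sources used here, so reads of overlapping genes are uncertain. Symbols were matched to 48970 of 49315 identifiers through GENCODE M21. Total counts lay between 33359322 and 49523086, and their differences limit the precision of genes near 1 CPM.

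Genotypes were compared with edgeR 4.0.16 in R 4.3.3 (filterByExpr, TMM, glmQLFit and glmQLFTest with genotype as the only term), with Benjamini-Hochberg adjustment across all 17163 genes that passed the filter and a call at 0.05 or below. CPM use TMM-scaled library sizes, and levels per kilobase use the exon length in the tables. Fold changes are Tbx20EH1Mut against wild-type. The SE of an edgeR log2 fold change is its absolute value divided by the square root of the F statistic of the quasi-likelihood test. Ratios and summed markers were compared with exact two-sided permutation tests over 70 arrangements. Every replicate pair differed beyond sampling noise, so each library is 1 replicate. P-values measure the spread between pools of hearts. On simulated counts of 17150 genes for this comparison, 86% of genes raised and 66% of genes lowered by 1 on the log2 scale, and 98% of those raised or lowered by 1.5, were recovered, and 4.92% of calls were not changed genes.

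Alternatives were RLE and upper-quartile scaling, DESeq2 1.42.0, limma-voom (limma 3.58.1), other count filters (at least 1 count, or at least 10 in every library), a replicate block, a foregut marker covariate and leaving out each library. The fit without 3 libraries was added after seeing the data, as was the search for GGAA. Python 3.11.15, pandas 2.3.3, numpy 2.4.6 and matplotlib 3.10.9 served for tables and plots. Named genes were the 10 genes, Tbx20, up to 4 called genes per pathway list with the largest fold and at least 1 CPM in a genotype, and the 5 genes most like Dusp6. Fgf9, Junb, Ier2, Myc, Spred2, Egr1 and the marker genes were named after their values were seen. The genes and lists were chosen with earlier results of these data known. Spry3 was not analysed here, and some genes that the rule names are not reported here.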

Additional observations from a re-analysis of the deposited data

Results flagged for a closer look

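In 8 of 74 groups of 4 libraries checked, 1 library stood apart from the other 3: its gap to the nearest of them was larger than Dixon's 95% critical value for 4 values. Chance alone sets apart about 1 in 20 groups, and the groups share the same 8 libraries. Tbx20EH1Mut replicate 3 was high for 4 genes: Spry2 at 125.4 CPM (the others 81.2 to 87.7), Dusp6 at 129.1 CPM (105.3 to 107.4), Fgf10 at 68.2 CPM (33.4 to 37.3) and Fgf6 at 3.34 CPM (1.78 to 2.01). This library had the lowest foregut marker sum of its genotype (34.8 CPM). Wild-type replicate 2 was high for Il17rd at 25.1 CPM (the others 7.44 to 9.48) and for Elk1 at 28.45 CPM (21.15 to 22.06), and it had the highest foregut marker sum of its genotype (62.7 CPM). Wild-type replicate 1, the shallowest library with 33359322 counts, was high for Phlda1 at 97.9 CPM (the others at most 71.1) and for the ratio of Fgfr2 to Fgfr1 at 0.495 (0.342 to 0.3499). The part of marker levels and depth in these values was not tested.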

How the results depend on the processing

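The count of 7 of the 10 genes called higher, and 0 lower, was the same under RLE and upper-quartile scaling, DESeq2, limma-voom, both other count filters, the replicate block and the fit without 3 libraries. With the foregut marker covariate it was 4 higher and 1 lower, in a fit that called 3323 of all genes higher and 3586 lower. Leaving out single libraries gave 6 to 7 higher and 0 lower. The 3 genes that did not pass the test changed sign: Fgfr1 with the covariate (-0.42) and without wild-type replicate 1 (-0.041 in a range up to 0.22 over single libraries left out), Spred1 with the covariate (-0.057) and Fgfr2 without Tbx20EH1Mut replicate 3 (0.0098 in a range down to -0.23). The cause was not tested. Over all genes, leaving out single libraries gave 1436 to 3237 called higher and 1496 to 3349 lower, against 2406 and 2618, with the lowest counts without wild-type replicate 3 (1440 and 1621), wild-type replicate 4 (1436 and 1565) or Tbx20EH1Mut replicate 4 (1532 and 1496). Upper-quartile scaling shifted the median of all genes by 0.0855 and gave 2859 higher and 1997 lower. With the replicate block, 1997 genes were called higher and 1948 lower. Same-numbered libraries had correlated deviations of -0.60, 0.42, 0.0037 and -0.04, and 0 of 4 correlated best with its own number, so the numbers were not read as pairs. Among the other genes named here the block ended the calls of Etv6 (adjusted p = 0.0506 by edgeR) and Elk1 (0.0542). Leaving out single libraries, the log2 difference lay between -1.24 and -0.99 for the ratio of Spry2 to Spry1, between -0.96 and -0.67 for Spry4 to Spry1, between 0.15 (without wild-type replicate 1) and 0.41 (without wild-type replicate 2) for Spry4 to Spry2, between -0.30 and -0.12 for Fgfr2 to Fgfr1 and between -0.068 and 0.10 for Etv5 to Etv4. For the first pair of these the exact permutation p-values lay between 0.0286 and 0.0571. Depth limits genes near 1 CPM, and none of the 10 genes was that low.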
